A study of Mus musculus with 22 samples.

Results

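The 30 genes described here make cholesterol in the liver, or sense, move and store it, and most belong to the program of SREBP2, the transcription factor that answers to sterol supply. They were listed by name, with earlier results of these data known, as 8 genes of the mevalonate and isoprenoid steps, 11 of the squalene and sterol steps, 6 of SREBP2 and its processing, and 5 of sterol transport, esterification and efflux. All 30 were among the 45777 genes of the count tables, and all 30 passed the filter on low counts in both cohorts. The first 2 groups together hold 19 enzymes.

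Whole-liver polyA RNA of male wild-type C57BL/6J mice was sequenced in 22 libraries, 11 in each of 2 cohorts that differ in the disease diet. The HFD cohort has 3 libraries of mice on normal diet with vehicle, 4 on high-fat diet (HFD) with vehicle and 4 on HFD with DTMB, and its diseased mice carry the label MASLD. The MCD cohort has 4 libraries of mice on normal diet with vehicle, 4 on a methionine-choline-deficient (MCD) diet with vehicle and 3 on MCD with DTMB, and its diseased mice carry the label MASH. The compound, for which the labels give the code name DTMB alone, was dosed orally every day at 10 mg/kg. Strain, sex and genotype are shared by all groups, and no group received DTMB on normal diet. The sources used here do not give age, diet length, feeding state or hour of sampling. The labels' batch name is the name of the cohort, so every comparison within a cohort is also within a batch. Libraries are numbered as biological replicates, and the values of each group are given below in the order of those numbers. The labels give these numbers no other meaning. In whole-liver RNA, fewer cells of a type and less RNA per cell cannot be told apart.

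Hepatocytes make cholesterol from acetyl-CoA through mevalonate, isoprenoid pyrophosphates, squalene and lanosterol. When sterols in the endoplasmic reticulum are low, SCAP carries the SREBP2 precursor to the Golgi, where the site-1 and site-2 proteases release the part that enters the nucleus and switches on nearly every enzyme of the pathway. When sterols are high, INSIG proteins hold SCAP back. Surplus cholesterol is esterified by acyltransferases, exported by ABC transporters or turned into bile acids, and the oxysterol receptors of the LXR family drive several genes on that side.

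SREBP2 binds promoters together with NF-Y, so the letters upstream of the members were read from RefSeq (GRCm38.p6, the mm10 build), in windows from 250 bases before to 50 after the start of transcription. Of the 30 members, 25 had a promoter in the table, and Fdps, Fdft1, Sqle, Stard4 and Soat2 had none. The 4 shown carry the promoters of the first committed step (Hmgcs1), of the member with the most NF-Y boxes (Mvk), and of the sterol enzymes Msmo1 and Tm7sf2, a pair whose values are described below. Capitals mark TCACNCCAC, a form of the sterol regulatory element, and CCAAT, the NF-Y box, on either strand, so that ATTGG is CCAAT on the other strand. The motifs share no base in these 4 windows.
Hmgcs1 promoter, chr13:119690101-119690400, + strand: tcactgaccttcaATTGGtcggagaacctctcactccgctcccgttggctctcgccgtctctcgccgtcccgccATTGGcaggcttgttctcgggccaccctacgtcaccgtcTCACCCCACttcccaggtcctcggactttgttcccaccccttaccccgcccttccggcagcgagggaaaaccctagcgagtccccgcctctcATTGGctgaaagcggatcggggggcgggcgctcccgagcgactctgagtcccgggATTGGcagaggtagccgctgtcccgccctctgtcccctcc
Mvk promoter, chr5:114444019-114444318, + strand: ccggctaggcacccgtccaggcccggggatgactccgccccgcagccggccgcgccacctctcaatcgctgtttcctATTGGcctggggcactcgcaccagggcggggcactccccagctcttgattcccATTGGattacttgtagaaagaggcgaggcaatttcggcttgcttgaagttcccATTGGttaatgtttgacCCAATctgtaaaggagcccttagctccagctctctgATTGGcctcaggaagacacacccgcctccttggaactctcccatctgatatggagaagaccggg
Msmo1 promoter, chr8:64733529-64733828, - strand: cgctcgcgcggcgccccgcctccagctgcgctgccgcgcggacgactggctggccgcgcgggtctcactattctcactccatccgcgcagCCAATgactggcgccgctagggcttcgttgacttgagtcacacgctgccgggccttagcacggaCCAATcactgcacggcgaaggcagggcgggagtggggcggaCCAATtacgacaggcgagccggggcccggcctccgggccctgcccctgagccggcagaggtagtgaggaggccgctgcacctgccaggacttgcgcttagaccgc
Tm7sf2 promoter, chr19:6067801-6068100, - strand: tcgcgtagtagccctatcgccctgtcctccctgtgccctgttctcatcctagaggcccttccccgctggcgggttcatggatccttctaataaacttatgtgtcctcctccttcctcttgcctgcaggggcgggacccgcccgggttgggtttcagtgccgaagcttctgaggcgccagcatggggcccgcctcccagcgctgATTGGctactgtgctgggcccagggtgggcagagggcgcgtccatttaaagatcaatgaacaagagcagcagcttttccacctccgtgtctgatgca
The Hmgcs1 window holds 4 CCAAT and the only TCACNCCAC found among the members, a motif present in 1.24% of all 32851 promoters of this length. Mvk holds 5 CCAAT, Msmo1 holds 3 and Tm7sf2 holds 1. At least 1 CCAAT stood in a window of 20 of the 25 member genes (80%), against 41.1% of 27025 genes in the table. Acat2, Scap, Mbtps1, Mbtps2 and Abca1 had none in these windows. A match describes the letters and is no measurement of binding.

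Libraries held between 50078966 and 66727450 counts. The hepatocyte list of 8 genes (Alb, Ttr, Apoa1 and others) summed to between 68650 and 120400 CPM (counts scaled to one common library total), and no gene of it was at 0 in any library. Transcripts of pancreatic acinar cells stood out in 6 libraries. Their list of 15 genes came to 1754 CPM for replicate 1 and 1573 CPM for replicate 3 among the HFD-cohort mice on normal diet. HFD replicate 1 held 558 CPM, HFD replicate 4 held 3759 CPM, HFD with DTMB replicate 3 held 2224 CPM, and among the MCD-cohort mice on normal diet replicate 4 held 467.3 CPM. The other 16 libraries held at most 22.3 CPM. Results of the HFD cohort are therefore given with and without these libraries, although without them only replicate 2 of its normal-diet group is left, which is then assumed to vary like the other groups. Normal-diet replicate 1 of the HFD cohort also held 177.7 CPM of skeletal muscle transcripts, and MCD replicate 3 held 117.6 CPM of adrenal cortex transcripts. For the genes below, CPM are scaled by TMM factors within the cohort, log2 fold changes come with their standard error (SE), and a gene is called where edgeR's quasi-likelihood test gave an adjusted p under 0.05.

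HFD raised cholesterol-synthesis genes and the MCD diet lowered them. Against normal diet in the same cohort, 16 of the 30 members rose on HFD and 2 fell, whereas 2 rose on MCD and 21 fell. The most marked rises on HFD were those of Mvd (2.24 ± 0.26 on the log2 scale), Msmo1 (2.103 ± 0.29) and Sqle (2.01 ± 0.36). On MCD, Tm7sf2 fell by 2.86 ± 0.18, Idi1 by 1.81 ± 0.26 and Nsdhl by 1.75 ± 0.22. In the HFD cohort 27.8% of all 15597 genes tested were called in either direction, 15.2% higher and 12.6% lower. In the MCD cohort 41.3% of 16037 genes were called, 20.3% higher and 21% lower. The members' median log2 fold change was 0.70 on HFD, where that of all genes was 0.015, and -0.88 on MCD, where that of all genes was 0.0039.

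Of the 19 enzymes, 12 rose on HFD and none fell, and 15 fell on MCD and none rose. By role, 6 of 8 mevalonate genes and 6 of 11 sterol genes rose on HFD, and 6 of 8 and 9 of 11 fell on MCD. Among the 6 genes of SREBP2 and its processing, 1 rose and 2 fell on HFD, and 4 fell on MCD. Of the 5 genes of transport and esterification, 3 rose on HFD, and 2 rose and 2 fell on MCD. Libraries of the 2 groups did not overlap for 17 higher and 2 lower members on HFD, against 19% and 17% of all genes (36% in either direction). On MCD they did not overlap for 2 higher and 19 lower members, against 17.8% and 19.9% (37.7%). Srebf2 and Abca1 did not overlap on HFD although neither was called.

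Without the 6 libraries with acinar transcripts, 9 of the 18 HFD calls were left (Acat2, Hmgcs1, Mvk, Mvd, Msmo1, Nsdhl, Insig1, Insig2 and Soat2), among 4.07% of all genes. The other 9 kept their direction, from 1.53 for Fdps and 1.68 for Sqle to -0.37 for Mbtps2. Scaling by library size alone moved the median of all genes to 0.14 on HFD and to 0.47 on MCD. Under that scaling 19 members rose and 2 fell on HFD, and 5 rose and 16 fell on MCD. The shares of all genes called under it are not given here, so these counts lack a background.

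**Figure D1:**
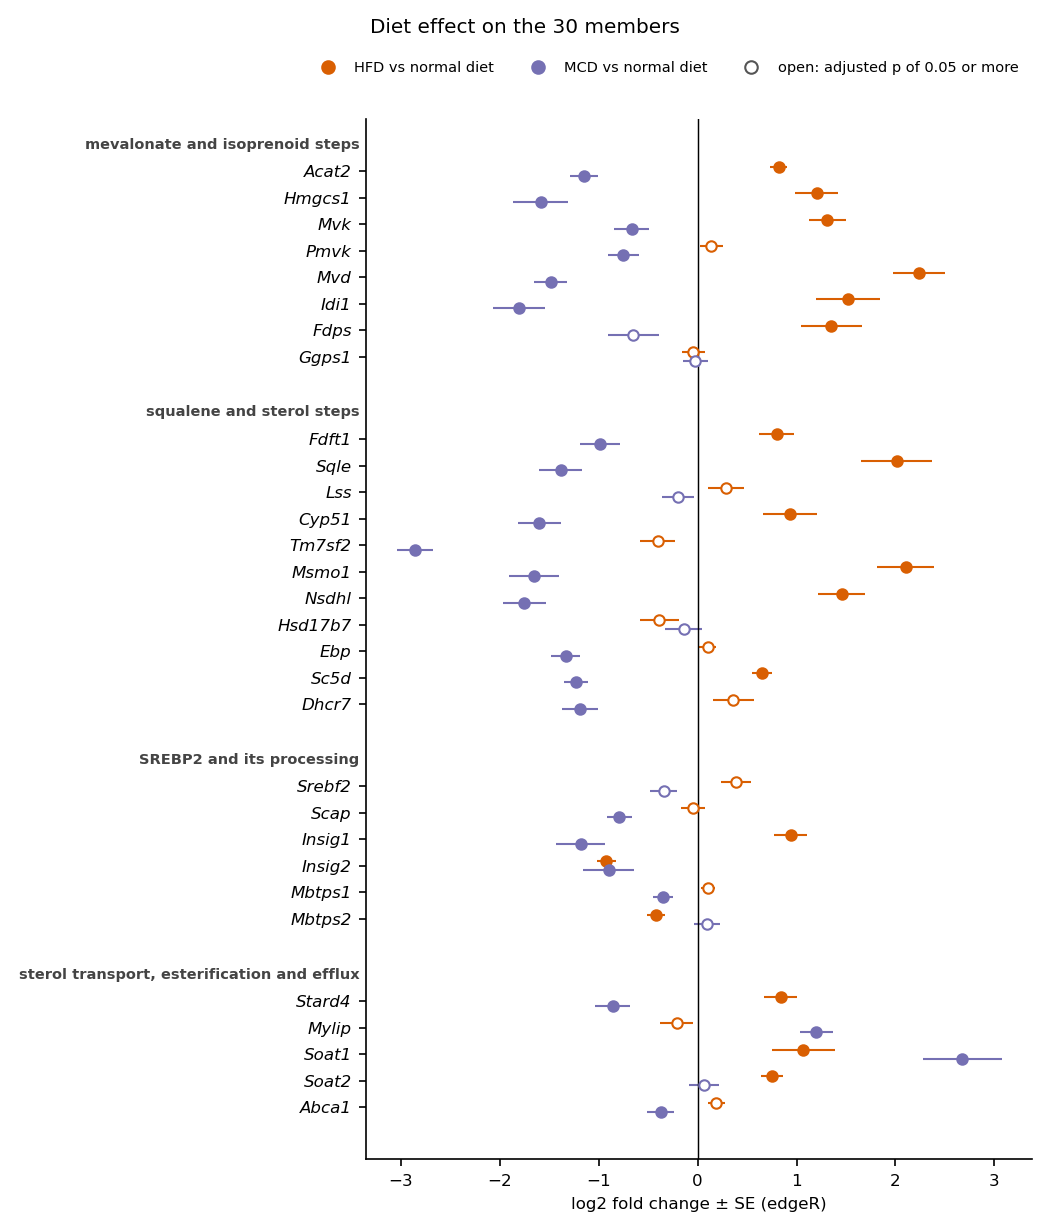
Log2 fold change (x axis, edgeR, bars ± SE) of each of the 30 members, grouped by role, for HFD against normal diet (orange) and MCD against normal diet (purple), each within its cohort. Filled points have an adjusted p under 0.05; most enzymes lie right of 0 on HFD and left of 0 on MCD, while Soat1 lies right of 0 on both diets and Insig2 left of 0 on both.

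The mevalonate steps begin with Acat2 (gene ID 110460, chr17:12943042-12960725), the cytosolic thiolase that joins acetyl-CoA units. It was measured at 44.97, 50.9 and 54.1 CPM on normal diet, 88.1, 85.7, 94.8 and 84.5 CPM on HFD and 87.8, 78.7, 77.8 and 75.6 CPM on HFD with DTMB. Every HFD library lay above every normal-diet library, a rise of 0.82 ± 0.085 (SE, edgeR adjusted p = 5.77e-05). The MCD cohort gave 138, 166, 136 and 134 CPM on normal diet, 49.03, 65.1, 64.2 and 80.3 CPM on MCD and 83.1, 75.1 and 68.5 CPM on MCD with DTMB. There all MCD libraries lay below all normal-diet libraries, and Acat2 fell by 1.15 ± 0.14 (SE, edgeR adjusted p = 8.01e-05). Its paralog Acat3 moved with it (1.17 ± 0.12 on HFD and -1.22 ± 0.23 on MCD), and how reads shared by the pair were counted is not stated, so the value of each is uncertain. Hmgcs1 (gene ID 208715, chr13:119690351-119708260) makes HMG-CoA and carries the sterol element printed above. Its HFD-cohort values were 96.6, 118 and 129 CPM on normal diet, 246, 257, 353 and 201 CPM on HFD and 208, 227, 127 and 210.2 CPM on HFD with DTMB. The HFD and normal-diet groups were apart, with a rise of 1.202 ± 0.22 (SE, edgeR adjusted p = 0.00174). The MCD cohort showed 246, 723, 398 and 351 CPM on normal diet, 118, 127, 152 and 175 CPM on MCD and 181, 221 and 158 CPM on MCD with DTMB. MCD values were all below those on normal diet, and the gene fell by 1.58 ± 0.28 (SE, edgeR adjusted p = 0.000898), 3.000-fold.

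Mvk (gene ID 17855, chr5:114444264-114460591), Pmvk (gene ID 68603, chr3:89454541-89469014) and Mvd (gene ID 192156, chr8:122433596-122443422) turn mevalonate into isopentenyl pyrophosphate, by 2 phosphorylations and a decarboxylation. Mvk reached 2.31, 3.59 and 2.92 CPM on normal diet, 6.45, 6.72, 8.55 and 7.43 CPM on HFD and 9.904, 9.503, 6.09 and 9.09 CPM on HFD with DTMB. It rose on HFD by 1.31 ± 0.19 (SE, edgeR adjusted p = 0.000488), with no overlap. Across the MCD cohort the libraries read 16.2, 29.7, 24.1 and 26.2 CPM on normal diet, 17.2, 11.7, 16.5 and 15.3 CPM on MCD and 13.02, 16.03 and 14.7 CPM on MCD with DTMB. MCD replicates 1 and 3 lay within the normal-diet range, and Mvk fell by 0.67 ± 0.18 (SE, edgeR adjusted p = 0.0108), a call that scaling by library size alone ended (-0.19). Pmvk had 12.7, 16.3 and 12.9 CPM on normal diet, 14.3, 14.6, 18.1 and 14.6 CPM on HFD and 17.4, 16.5, 13.7 and 14.4 CPM on HFD with DTMB. Its groups overlapped, and the difference was 0.14 ± 0.12 (SE, edgeR adjusted p = 0.417). The MCD cohort held 40.1, 59.3, 42.1 and 41.1 CPM on normal diet, 26.8, 24.7, 24.5 and 32.5 CPM on MCD and 22.8, 31.2 and 30.6 CPM on MCD with DTMB. Here MCD lay wholly below normal diet, and Pmvk fell by 0.75 ± 0.16 (SE, edgeR adjusted p = 0.00248), again not called under library size alone (-0.29).

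Mvd is a scarce transcript in the normal-diet livers of the HFD cohort, where the gene had 1.44, 1.17 and 1.36 CPM on normal diet, 5.58, 5.600, 8.96 and 4.999 CPM on HFD and 8.97, 6.302, 4.44 and 7.01 CPM on HFD with DTMB. All 4 HFD libraries exceeded the normal-diet libraries several-fold, a rise of 2.24 ± 0.26 (SE, edgeR adjusted p = 0.000118) or 4.73-fold. Its values in the MCD cohort were 20.7, 25.9, 24.96 and 23.9 CPM on normal diet, 6.66, 6.66, 10.4 and 10.4 CPM on MCD and 8.07, 9.42 and 9.81 CPM on MCD with DTMB. The MCD group lay wholly below, and Mvd fell by 1.49 ± 0.17 (SE, edgeR adjusted p = 4.51e-05). A lncRNA gene, Gm51557, overlaps Mvd, and whether strand was used in counting is not stated. Idi1 (gene ID 319554, chr13:8885606-8892396) isomerizes isopentenyl pyrophosphate. It was at 9.602, 19.5 and 17.4 CPM on normal diet, 39.5, 33.4, 67.1 and 38.1 CPM on HFD and 55.5, 66.4, 30.3 and 65.1 CPM on HFD with DTMB. The groups did not overlap on HFD, with a rise of 1.52 ± 0.33 (SE, edgeR adjusted p = 0.00490). MCD-cohort libraries held 109.7, 262, 197 and 285 CPM on normal diet, 42.3, 59.6, 75.5 and 66.6 CPM on MCD and 76.7, 69.5 and 64.4 CPM on MCD with DTMB. Idi1 fell on MCD by 1.81 ± 0.26 (SE, edgeR adjusted p = 0.000265), 3.495-fold, with every MCD library below every normal-diet library.

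Fdps (gene ID 110196, chr3:89093588-89101967) makes farnesyl pyrophosphate, the branch point to squalene, dolichol and prenylated proteins. Its values were 17.6, 23.6 and 27.2 CPM on normal diet, 47.4, 42.4, 95.4 and 47.2 CPM on HFD and 73.4, 67.7, 35.6 and 59.4 CPM on HFD with DTMB. HFD replicate 3 stood far above the other HFD libraries, and the group lay above normal diet by 1.35 ± 0.31 (SE, edgeR adjusted p = 0.00708). The MCD cohort had 171, 327, 269.8 and 265 CPM on normal diet, 240.2, 99.3, 168 and 151 CPM on MCD and 132, 175 and 204 CPM on MCD with DTMB. These groups overlapped, and the difference was -0.65 ± 0.26 (SE, edgeR adjusted p = 0.0622). Ggps1, which makes geranylgeranyl pyrophosphate for protein prenylation, was not called on either diet. It ran from 6.75 to 7.33 CPM on normal diet and 6.14 to 7.66 CPM on HFD, and from 6.51 to 7.42 CPM on normal diet and 6.13 to 7.92 CPM on MCD. The differences were -0.042 ± 0.12 (SE, edgeR adjusted p = 0.820) and -0.021 ± 0.12 (SE, edgeR adjusted p = 0.904), and the latter turned to 0.45 and was called under library size alone.

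Squalene synthesis and its oxidation open the sterol branch. Fdft1 (gene ID 14137, chr14:63145150-63181687), squalene synthase, was at 27.8, 38.8 and 33.00 CPM on normal diet, 47.8, 49.96, 76.2 and 57.1 CPM on HFD and 63.95, 77.8, 53.5 and 72.3 CPM on HFD with DTMB. HFD lay above normal diet without overlap, by 0.80 ± 0.18 (SE, edgeR adjusted p = 0.00594). The MCD-cohort values were 109.6, 219, 157 and 159 CPM on normal diet, 77.4, 63.2, 77.00 and 107 CPM on MCD and 85.02, 103 and 83.6 CPM on MCD with DTMB. Fdft1 fell on MCD by 0.99 ± 0.20 (SE, edgeR adjusted p = 0.00237). It shares 774 bp with Ctsb, a lysosomal protease gene that rose on both diets (0.49 ± 0.068 on HFD and 0.72 ± 0.13 on MCD). Sqle (gene ID 20775, chr15:59315092-59331193), squalene epoxidase and a rate-limiting step after mevalonate, was at 4.86, 8.41 and 5.17 CPM on normal diet, 22.97, 15.7, 38.7 and 21.7 CPM on HFD and 33.7, 36.4, 14.6 and 27.5 CPM on HFD with DTMB. The lowest HFD library was above the highest on normal diet, and the rise was 2.01 ± 0.36 (SE, edgeR adjusted p = 0.00169) or 4.04-fold. Libraries of the MCD cohort held 89.7, 163, 122 and 134 CPM on normal diet, 34.7, 39.9, 53.7 and 66.7 CPM on MCD and 58.4, 63.95 and 50.1 CPM on MCD with DTMB. All MCD libraries lay below, and Sqle fell by 1.38 ± 0.22 (SE, edgeR adjusted p = 0.000434). Lss, lanosterol synthase, was not called on either diet. It ranged over 12.6 to 16.3 CPM on normal diet and 14.2 to 22.2 CPM on HFD, and over 56.2 to 92.8 CPM and 53.7 to 70.5 CPM in the MCD cohort, with differences of 0.29 ± 0.18 (SE, edgeR adjusted p = 0.255) and -0.20 ± 0.16 (SE, edgeR adjusted p = 0.344).

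Lanosterol is demethylated by Cyp51 (gene ID 13121, chr5:4080674-4104697), Msmo1 (gene ID 66234, chr8:64718123-64733578) and Nsdhl (gene ID 18194, chrX:72918521-72958528). Cyp51 had 24.2, 36.4 and 38.8 CPM on normal diet, 57.5, 50.4, 88.4 and 56.6 CPM on HFD and 66.6, 99.5, 42.7 and 82.7 CPM on HFD with DTMB. The groups did not overlap on HFD, and the rise of 0.93 ± 0.28 (SE, edgeR adjusted p = 0.0253) was not called without HFD replicate 3 (adjusted p = 0.0574), normal-diet replicate 1 (0.109) or normal-diet replicate 2 (0.0529), all by edgeR. MCD-cohort Cyp51 was 143, 285, 216 and 268 CPM on normal diet, 56.96, 68.3, 75.3 and 101 CPM on MCD and 86.1, 98.7 and 85.3 CPM on MCD with DTMB. It fell on MCD by 1.599 ± 0.22 (SE, edgeR adjusted p = 0.000161) without overlap. Msmo1 was measured at 13.6, 25.4 and 20.8 CPM on normal diet, 70.7, 72.9, 123 and 76.6 CPM on HFD and 97.7, 118, 58.4 and 112 CPM on HFD with DTMB. Every HFD library was well above normal diet, with a rise of 2.103 ± 0.29 (SE, edgeR adjusted p = 0.000352) or 4.296-fold. Its MCD-cohort values were 147, 353, 258 and 295 CPM on normal diet, 70.03, 62.1, 86.7 and 115 CPM on MCD and 101, 125 and 107 CPM on MCD with DTMB. MCD lay below throughout, and Msmo1 fell by 1.66 ± 0.25 (SE, edgeR adjusted p = 0.000368). Nsdhl read 7.201, 10.4 and 13.96 CPM on normal diet, 26.7, 25.2, 34.6 and 28.7 CPM on HFD and 30.5, 33.7, 17.96 and 25.7 CPM on HFD with DTMB. It rose on HFD by 1.45 ± 0.24 (SE, edgeR adjusted p = 0.00102), with the groups apart. MCD-cohort mice had 61.9, 141, 92.4 and 125 CPM on normal diet, 26.1, 29.7, 32.4 and 36.6 CPM on MCD and 34.2, 40.1 and 33.8 CPM on MCD with DTMB. It fell by 1.75 ± 0.22 (SE, edgeR adjusted p = 8.32e-05), 3.37-fold.

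Tm7sf2 (gene ID 73166, chr19:6062821-6067850) is a sterol C14-reductase that did not rise on HFD and fell on MCD. In the HFD cohort it was at 85.9, 77.2 and 91.7 CPM on normal diet, 73.6, 58.2, 82.98 and 41.9 CPM on HFD and 98.4, 87.9, 95.1 and 109 CPM on HFD with DTMB. HFD replicates 1, 2 and 4 were below every normal-diet library but replicate 3 was not, and the difference of -0.40 ± 0.18 (SE, edgeR adjusted p = 0.117) was not called. For the MCD cohort the values were 136, 175, 144 and 170.3 CPM on normal diet, 16.4, 20.1, 19.6 and 30.2 CPM on MCD and 24.7, 23.8 and 30.5 CPM on MCD with DTMB. MCD lay far below normal diet, and Tm7sf2 fell by 2.86 ± 0.18 (SE, edgeR adjusted p = 1.11e-06), 7.25-fold, the smallest adjusted p of any member on that diet. It overlaps Vps51 by 9 bp. Hsd17b7, a keto-sterol reductase, was not called on either diet, with 66.6 to 71.1 CPM on normal diet against 40.3 to 69.7 CPM on HFD, and 46.7 to 95.6 CPM against 61.7 to 80.4 CPM in the MCD cohort. Its differences were -0.39 ± 0.20 (SE, edgeR adjusted p = 0.163) and -0.14 ± 0.19 (SE, edgeR adjusted p = 0.580).

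The closing steps are made by Ebp (gene ID 13595, chrX:8185329-8193512), which moves a double bond, Sc5d (gene ID 235293, chr9:42251592-42264300), a desaturase, and Dhcr7 (gene ID 13360, chr7:143823167-143848410), which reduces 7-dehydrocholesterol to cholesterol. Ebp was abundant at 132, 143 and 134 CPM on normal diet, 142, 155, 159.7 and 130.4 CPM on HFD and 169.7, 173, 151 and 175 CPM on HFD with DTMB. HFD replicate 4 was the lowest of the 7 and the groups overlapped, with a difference of 0.10 ± 0.084 (SE, edgeR adjusted p = 0.394). The MCD-cohort values were 293, 285, 244 and 252 CPM on normal diet, 103, 92.3, 87.8 and 143 CPM on MCD and 112, 113 and 109 CPM on MCD with DTMB. Ebp fell on MCD by 1.33 ± 0.15 (SE, edgeR adjusted p = 3.62e-05). Sc5d was at 161, 196 and 209 CPM on normal diet, 286, 266, 321 and 312 CPM on HFD and 268, 300.1, 255 and 299 CPM on HFD with DTMB. It rose on HFD by 0.65 ± 0.10 (SE, edgeR adjusted p = 0.000888), without overlap. On the other diet it was at 617, 774, 672 and 590.1 CPM on normal diet, 286, 243, 294 and 308 CPM on MCD and 319.8, 376 and 384 CPM on MCD with DTMB. It fell by 1.23 ± 0.12 (SE, edgeR adjusted p = 1.75e-05), with the highest MCD library far below the lowest on normal diet. Dhcr7 was at 23.8, 31.3 and 23.96 CPM on normal diet, 30.9, 28.03, 43.9 and 32.7 CPM on HFD and 37.8, 33.97, 21.02 and 24.7 CPM on HFD with DTMB. Its HFD-cohort groups overlapped, with a difference of 0.36 ± 0.21 (SE, edgeR adjusted p = 0.211). MCD-cohort Dhcr7 was at 88.8, 175, 105 and 105 CPM on normal diet, 48.7, 46.6, 57.4 and 54.7 CPM on MCD and 61.04, 57.8 and 58.5 CPM on MCD with DTMB. It fell by 1.19 ± 0.18 (SE, edgeR adjusted p = 0.000339).

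**Figure D2:**
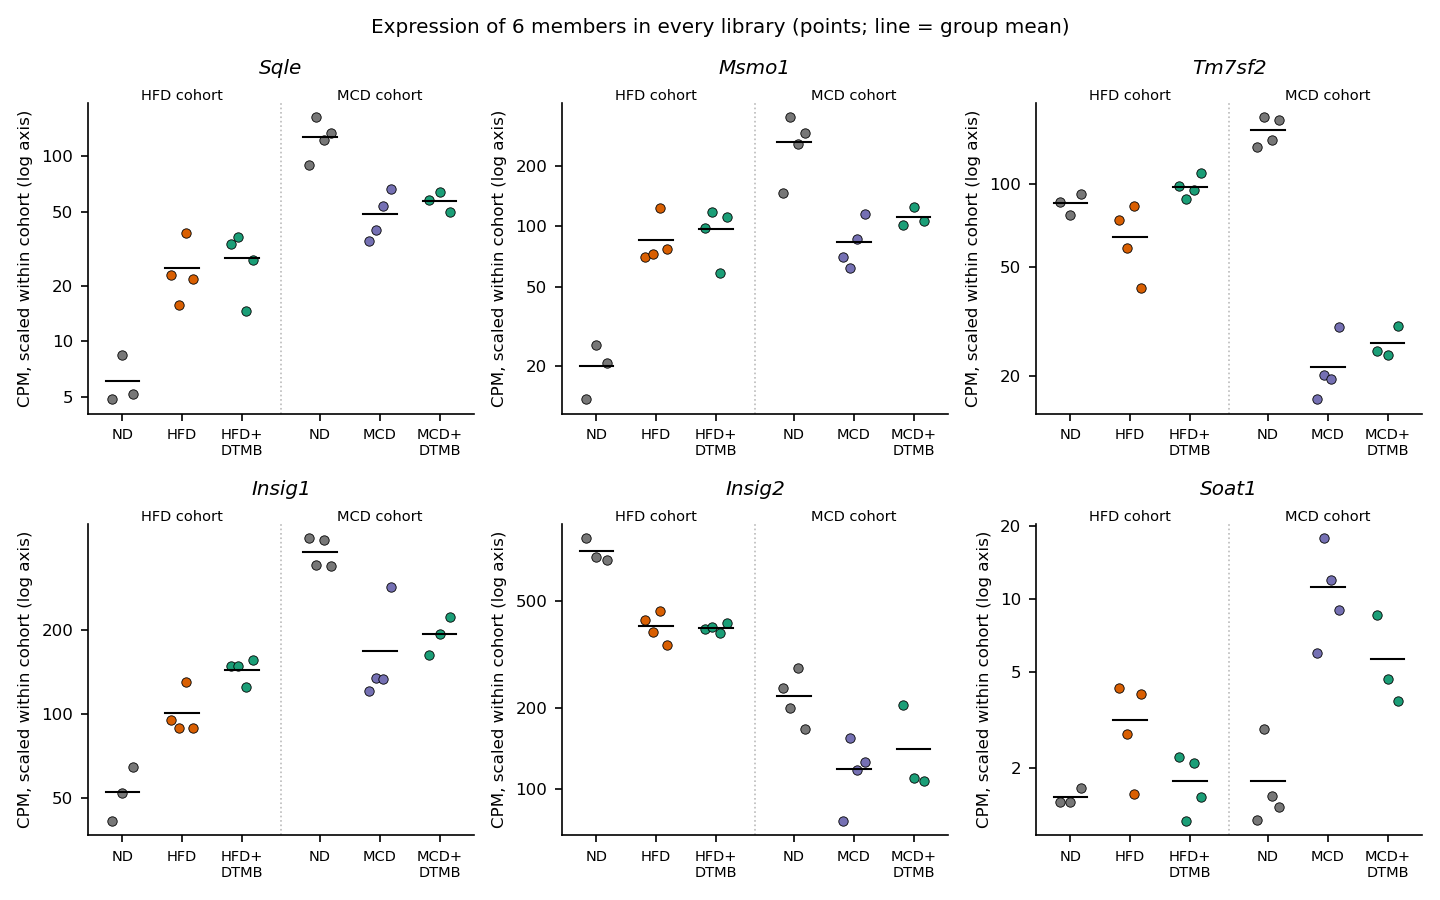
CPM on a log axis, scaled within the cohort, of Sqle, Msmo1, Tm7sf2, Insig1, Insig2 and Soat1, with 1 point per library and a line at the group mean, for normal diet (ND), the disease diet with vehicle (HFD or MCD) and the disease diet with DTMB. Sqle and Msmo1 rise on HFD and fall on MCD, Tm7sf2 falls on MCD, Insig2 falls on both diets, and Soat1 rises on both with overlap in the HFD cohort.

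The gene of the factor itself was not called on either diet. Srebf2 (gene ID 20788, chr15:82147269-82205379), whose locus also holds the miRNA gene Mir33, was at 36.1, 36.02 and 32.5 CPM on normal diet, 41.5, 42.1, 56.7 and 42.2 CPM on HFD and 56.3, 60.9, 38.97 and 48.7 CPM on HFD with DTMB. All HFD libraries were above normal diet, but the difference of 0.39 ± 0.15 (SE, edgeR adjusted p = 0.0714) was not called. Values of the MCD cohort were 55.5, 70.4, 62.6 and 50.2 CPM on normal diet, 49.6, 38.1, 50.1 and 50.2 CPM on MCD and 42.7, 56.3 and 45.97 CPM on MCD with DTMB. These groups overlapped, with a difference of -0.34 ± 0.14 (SE, edgeR adjusted p = 0.0599). Scap (gene ID 235623, chr9:110333288-110384949), the sterol-sensing escort of SREBP2, was at 95.2, 115 and 115 CPM on normal diet, 105, 104, 120.0 and 89.3 CPM on HFD and 115, 101, 88.7 and 89.7 CPM on HFD with DTMB. Its HFD-cohort groups overlapped (-0.047 ± 0.12 SE, edgeR adjusted p = 0.802). The MCD cohort held 117, 165, 119 and 135 CPM on normal diet, 90.6, 71.3, 76.96 and 71.1 CPM on MCD and 80.5, 84.7 and 77.3 CPM on MCD with DTMB. Scap fell on MCD by 0.79 ± 0.12 (SE, edgeR adjusted p = 0.000438).

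The 2 INSIG genes, which encode the retention factors of SCAP, parted on HFD. Insig1 (gene ID 231070, chr5:28071412-28078662), itself an SREBP2 target, was at 41.5, 52.1 and 64.6 CPM on normal diet, 95.8, 89.4, 130.3 and 89.3 CPM on HFD and 149, 149, 125 and 156 CPM on HFD with DTMB. It rose on HFD by 0.94 ± 0.16 (SE, edgeR adjusted p = 0.00152), with no overlap. Mice of the MCD cohort gave 428, 343, 419.9 and 340.2 CPM on normal diet, 121, 135, 134 and 285 CPM on MCD and 163, 194 and 224 CPM on MCD with DTMB. MCD replicate 4 stood far above the other MCD libraries but still below normal diet, and Insig1 fell by 1.18 ± 0.25 (SE, edgeR adjusted p = 0.00272). Insig2 (gene ID 72999, chr1:121304353-121332662), which has a separate liver promoter, was at 851, 725 and 709.7 CPM on normal diet, 423, 384, 456 and 343 CPM on HFD and 391, 398, 379.8 and 415 CPM on HFD with DTMB. It fell on HFD by 0.92 ± 0.097 (SE, edgeR adjusted p = 6.11e-05), 1.897-fold, with all HFD libraries below normal diet. Across the MCD cohort the libraries read 238, 200.1, 281 and 167 CPM on normal diet, 76.5, 155, 118 and 126 CPM on MCD and 205, 110.0 and 108 CPM on MCD with DTMB. It fell there too, by 0.90 ± 0.26 (SE, edgeR adjusted p = 0.0150), a call that library size alone ended (-0.44). On normal diet in the HFD cohort, per kilobase of exon, Insig2 was the most abundant member (219 CPM per kb), ahead of Ebp (59.2 CPM per kb), and Insig1 was at 17.1 CPM per kb. In normal-diet livers of the MCD cohort the order of the pair was the other way, with Insig1 at 124 and Insig2 at 63.8 CPM per kb.

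Mbtps1 (gene ID 56453, chr8:119508151-119558864) and Mbtps2 (gene ID 270669, chrX:157547822-157598715) encode the site-1 and site-2 proteases that release SREBP2. Mbtps1 was at 53.3, 53.2 and 62.3 CPM on normal diet, 62.7, 59.4, 60.6 and 59.2 CPM on HFD and 60.6, 58.5, 63.3 and 57.7 CPM on HFD with DTMB. Its HFD-cohort groups overlapped (0.10 ± 0.073 SE, edgeR adjusted p = 0.312). The MCD cohort gave 63.3, 61.8, 64.4 and 72.04 CPM on normal diet, 59.6, 51.2, 50.5 and 43.5 CPM on MCD and 54.5, 54.5 and 52.4 CPM on MCD with DTMB. Mbtps1 fell on MCD by 0.35 ± 0.10 (SE, edgeR adjusted p = 0.0149) with TMM factors, but under library size alone it stood at 0.12 and was not called. Mbtps2 was at 10.8, 10.1 and 10.6 CPM on normal diet, 8.48, 7.51, 8.13 and 7.13 CPM on HFD and 7.66, 8.09, 6.86 and 8.73 CPM on HFD with DTMB. It fell on HFD by 0.42 ± 0.093 (SE, edgeR adjusted p = 0.00583), with no overlap. On MCD it was at 6.88, 7.22, 8.29 and 8.18 CPM on normal diet, 8.09, 9.95, 7.72 and 6.905 CPM on MCD and 10.1, 8.54 and 8.84 CPM on MCD with DTMB. The groups overlapped and the difference was 0.096 ± 0.13 (SE, edgeR adjusted p = 0.594), whereas library size alone gave a called rise of 0.57. Yy2 overlaps Mbtps2 by 2867 bp.

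Stard4 (gene ID 170459), a carrier of cholesterol between membranes and an SREBP2 target, rose on HFD and fell on MCD. It was at 20.7, 30.5 and 34.2 CPM on normal diet, 50.99, 46.6, 59.2 and 46.9 CPM on HFD and 68.4, 78.9, 57.5 and 79.03 CPM on HFD with DTMB. It rose on HFD by 0.84 ± 0.17 (SE, edgeR adjusted p = 0.00320), without overlap. The MCD-cohort values were 114, 141, 137 and 193 CPM on normal diet, 66.00, 64.3, 90.5 and 102 CPM on MCD and 97.1, 93.6 and 95.2 CPM on MCD with DTMB. It fell there by 0.86 ± 0.18 (SE, edgeR adjusted p = 0.00260). Mylip (gene ID 218203, chr13:45389742-45411940), an LXR target that marks lipoprotein receptors for degradation, was at 12.8, 10.9 and 11.8 CPM on normal diet, 11.04, 11.3, 6.697 and 11.9 CPM on HFD and 8.86, 8.38, 10.6 and 9.78 CPM on HFD with DTMB. HFD replicates 1, 2 and 4 lay within the normal-diet range and replicate 3 below it, with a difference of -0.21 ± 0.17 (SE, edgeR adjusted p = 0.368). On MCD it was at 4.75, 5.62, 6.78 and 6.41 CPM on normal diet, 13.4, 16.7, 13.7 and 10.2 CPM on MCD and 9.75, 12.3 and 10.6 CPM on MCD with DTMB. Mylip rose there by 1.201 ± 0.17 (SE, edgeR adjusted p = 0.000180), 2.299-fold, with no overlap. Abca1 (gene ID 11303, chr4:53030789-53159988), an LXR target that loads cholesterol onto apolipoprotein A-I, was at 143, 145 and 122 CPM on normal diet, 156, 168, 147 and 152 CPM on HFD and 153, 136, 135 and 126 CPM on HFD with DTMB. HFD lay above normal diet by 0.19 ± 0.087 (SE, edgeR adjusted p = 0.127), which was not called. Its values in the MCD cohort were 189, 158, 173 and 188 CPM on normal diet, 172, 103, 137 and 135 CPM on MCD and 119, 133 and 130.3 CPM on MCD with DTMB. The groups overlapped, and Abca1 fell by 0.37 ± 0.14 (SE, edgeR adjusted p = 0.0473) with TMM factors and stood at 0.085 under library size alone. That call held in 5 of 22 alternatives. It ended without any 1 of normal-diet replicates 1, 3 and 4, MCD replicates 2, 3 and 4 or the 3 libraries with DTMB (edgeR adjusted p = 0.0592 to 0.105).

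Cholesterol is esterified by Soat2 (gene ID 223920, chr15:102150415-102163469) in hepatocytes and by Soat1 (gene ID 20652, chr1:156428108-156474328) in most other cells, macrophages among them. Soat2 was at 13.3, 14.4 and 14.4 CPM on normal diet, 18.5, 24.3, 26.4 and 24.98 CPM on HFD and 26.7, 26.4, 23.4 and 24.1 CPM on HFD with DTMB. It rose on HFD by 0.75 ± 0.11 (SE, edgeR adjusted p = 0.000544), with no overlap. The MCD cohort had 18.4, 18.95, 23.6 and 21.8 CPM on normal diet, 27.4, 18.6, 18.9 and 21.6 CPM on MCD and 19.4, 25.9 and 26.6 CPM on MCD with DTMB. The groups overlapped, with a difference of 0.064 ± 0.15 (SE, edgeR adjusted p = 0.758) and a called rise of 0.53 under library size alone. Soat1 was the scarcest member, at 0.154 CPM per kb on normal diet in the HFD cohort. Its values were 1.44, 1.44 and 1.66 CPM on normal diet, 4.301, 2.78, 1.57 and 4.04 CPM on HFD and 2.23, 1.21, 2.11 and 1.52 CPM on HFD with DTMB. HFD replicate 3 lay within the normal-diet range, and the rise of 1.07 ± 0.32 (SE, edgeR adjusted p = 0.0271) was not called without any 1 of HFD replicates 1 and 4 and normal-diet replicates 1, 2 and 3 (edgeR adjusted p = 0.0545 to 0.0855). On MCD it was at 1.22, 2.91, 1.53 and 1.38 CPM on normal diet, 5.98, 17.9, 12.01 and 9.02 CPM on MCD and 8.57, 4.65 and 3.79 CPM on MCD with DTMB. Every MCD library was above normal diet, and Soat1 rose by 2.68 ± 0.40 (SE, edgeR adjusted p = 0.000302) or 6.39-fold.

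Group medians of macrophage and stellate cell marker sums were higher on both disease diets, with overlap between the groups on HFD. Those of endothelial markers were higher on MCD alone. Of these lists, only that of lipid-associated macrophages was set against Soat1 library by library. The list of 9 lipid-associated macrophage genes (Trem2, Gpnmb, Spp1 and others) had 6 members higher and 1 lower on HFD and 7 higher on MCD, and at most 1 of its genes was at 0 in any library. On the same TMM scale its sum ran from 60.1 to 82.6 CPM on normal diet and from 80.04 to 125 CPM on HFD, and from 98.5 to 155 CPM on normal diet and 364 to 870.1 CPM on MCD. With DTMB it ran from 57.4 to 84.4 CPM on HFD and 161 to 344 CPM on MCD. Over the 11 libraries of a cohort, log2 Soat1 and the log2 sum correlated at r = 0.78 in the HFD cohort and r = 0.94 in the MCD cohort (Spearman 0.61 and 0.93). The points share their libraries and scaling, and the 3 groups differ in both measures, so these are descriptions. The adrenal cortex list, another tissue that expresses Soat1, was at 97.96 CPM in MCD replicate 3 and at most 1.55 CPM elsewhere in that cohort. Without that library Soat1 still rose on MCD by 2.64 (edgeR adjusted p = 0.00104). On the library-total scale, the 9 stellate cell markers summed to 135.5 to 339.5 CPM on normal diet and 493.3 to 866.1 CPM on MCD, and the 8 endothelial markers to 94.02 to 122 CPM and 155 to 216 CPM, both without overlap. The 11 Kupffer cell and macrophage markers had medians of 180.6 and 630.6 CPM in these groups and overlapped. In the HFD cohort the stellate sum ran from 250.6 to 294 CPM on normal diet and 278 to 448 CPM on HFD, the endothelial sum from 139.6 to 179 CPM and 107 to 178 CPM, and the Kupffer medians were 209.5 and 414.5 CPM. The HFD-cohort stellate medians were 263 CPM on normal diet and 375.2 CPM on HFD. With DTMB, the stellate, endothelial and Kupffer medians were 279.6, 117.4 and 241.8 CPM on HFD. On MCD with DTMB they were 425.5, 138.1 and 471.1 CPM. No gene of these 3 lists was at 0 in any library. The part of these cells in the Soat1 values was not tested.

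**Figure D3:**
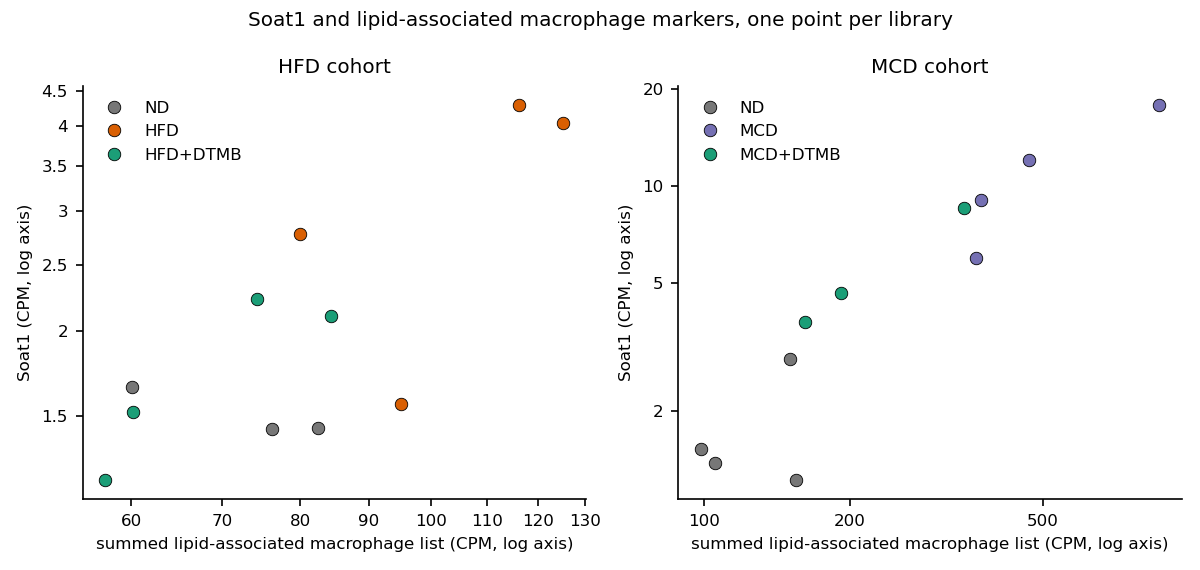
Soat1 (y axis, CPM) against the summed lipid-associated macrophage list (x axis, CPM), both on log axes and scaled within the cohort, with 1 point per library coloured by group, for the HFD cohort (left) and the MCD cohort (right). In the MCD cohort the 4 vehicle libraries on the disease diet hold the highest sums, from 364 to 870.1 CPM, and Soat1 at 5.98 to 17.9 CPM.

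The contrast between the diets was tested itself. The MCD effect minus the HFD effect was called for 26 of the 30 members, 3 higher and 23 lower, among 35.3% of all 16541 genes (16.8% higher and 18.5% lower). The widest gaps were those of Msmo1, with a difference of -3.73 ± 0.41 (SE, edgeR adjusted p = 8.31e-07), Mvd (-3.697 ± 0.31), Sqle (-3.36 ± 0.44), Idi1 (-3.295 ± 0.45) and Nsdhl (-3.17 ± 0.34). Mylip (1.44 ± 0.25), Soat1 (1.64 ± 0.53) and Mbtps2 (0.55 ± 0.16) were the 3 whose MCD effect was above their HFD effect. Of these, Mbtps2 was not called on MCD (0.096) and fell on HFD (-0.42). Ggps1, Lss, Hsd17b7 and Insig2 were not called. Each diet was measured against its own normal-diet group, so the difference also contains any difference between those groups, which is described below. Without the acinar libraries 18 of the 26 calls were left, with Pmvk, Srebf2, Scap, Mbtps1, Mbtps2, Soat1, Soat2 and Abca1 lost. Under library size alone, which moved the median of all genes to 0.33, 3 members were higher and 18 lower, and Srebf2 (-0.39), Scap (-0.39), Mbtps1 (-0.11), Soat2 (-0.35) and Abca1 (-0.23) were not called. No share of all genes called under that scaling is given beside these counts. Soat1 was not called without MCD replicate 2 (edgeR adjusted p = 0.0531), nor Abca1 without normal-diet replicate 3 of the HFD cohort (0.0560).

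The normal-diet livers of the cohorts differed from each other. On 1 scale for all 22 libraries, 21 members were higher and 3 lower in the normal-diet group of the MCD cohort than in that of the HFD cohort, among 25% of all genes (13.3% higher and 11.8% lower), a comparison added after the data had been seen. Without overlap 21 were higher and 4 lower, against 17.7% and 16.3% of all genes (34%). Sqle was higher by 4.23 ± 0.36 (SE, edgeR adjusted p = 9.64e-08), Mvd by 4.02 ± 0.26 (SE, edgeR adjusted p = 2.84e-09), Idi1 by 3.64 ± 0.36 (SE, edgeR adjusted p = 4.98e-07), Msmo1 by 3.57 ± 0.33 (SE, edgeR adjusted p = 2.01e-07) and Fdps by 3.35 ± 0.35 (SE, edgeR adjusted p = 8.26e-07). Insig2 (-1.92 ± 0.22), Mylip (-1.15 ± 0.18) and Mbtps2 (-0.60 ± 0.12) were the 3 lower. Without the acinar libraries Tm7sf2, Ebp, Srebf2, Soat2 and Mbtps2 (edgeR adjusted p = 0.116) were not called. Soat2 was also not called without any 1 of the 3 normal-diet libraries of the HFD cohort or normal-diet replicates 3 and 4 of the MCD cohort (0.0768 to 0.136), or under library size alone. The groups share diet, strain and sex by their labels, and cohort, batch and any unstated condition cannot be told apart. Averaged over the 19 enzymes and set against the normal-diet group of the HFD cohort, the level was 1.79-fold on HFD (libraries from 1.597 to 2.304) and 1.91-fold on HFD with DTMB (1.45 to 2.16). It was 4.498-fold on normal diet in the MCD cohort (3.41 to 5.68), 2.02-fold on MCD (1.82 to 2.41) and 2.28-fold on MCD with DTMB (2.13 to 2.42). The enzyme level of MCD livers was thus below that of their own normal-diet group and above that of the other cohort's normal-diet group, without overlap on either side.

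Clock and feeding genes also differed between these groups. Between the normal-diet groups, 11 of 17 clock genes (9 higher and 2 lower) and 6 of 11 feeding and fasting genes (1 higher and 5 lower) were called. Dbp, a clock output gene, averaged 0.935 ± 0.14 CPM in the HFD cohort and 48.5 ± 30.8 CPM in the MCD cohort (SD, n = 3 and 4, 1 scale). Nr1d1, a clock repressor, averaged 10.4 and 88.9 CPM. Of the fasting genes, Fgf21 was at 9.91 and 0.087 CPM and Cpt1a, the gate of fatty acid oxidation, at 892 and 327 CPM. On HFD 13 of 17 clock genes were called (8 higher and 5 lower), Hlf by 0.65 ± 0.079 and Cry1 by -1.43 ± 0.18, and 6 of 11 feeding genes (1 higher and 5 lower), with Irs2, an insulin receptor substrate, at -2.31 ± 0.21. On MCD 5 of 17 clock genes (2 higher and 3 lower) and 8 of 11 feeding genes (all higher) were called, where 41.3% of all genes were, Fgf21 by 6.500 ± 0.51 and Angptl4 by 1.95 ± 0.29. Under library size alone the clock genes were 7 higher and 1 lower on MCD, and 8 higher and 4 lower on HFD, again without a share of all genes under that scaling. The part of feeding state or hour of sampling in the members' values was not tested.

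**Figure D4:**
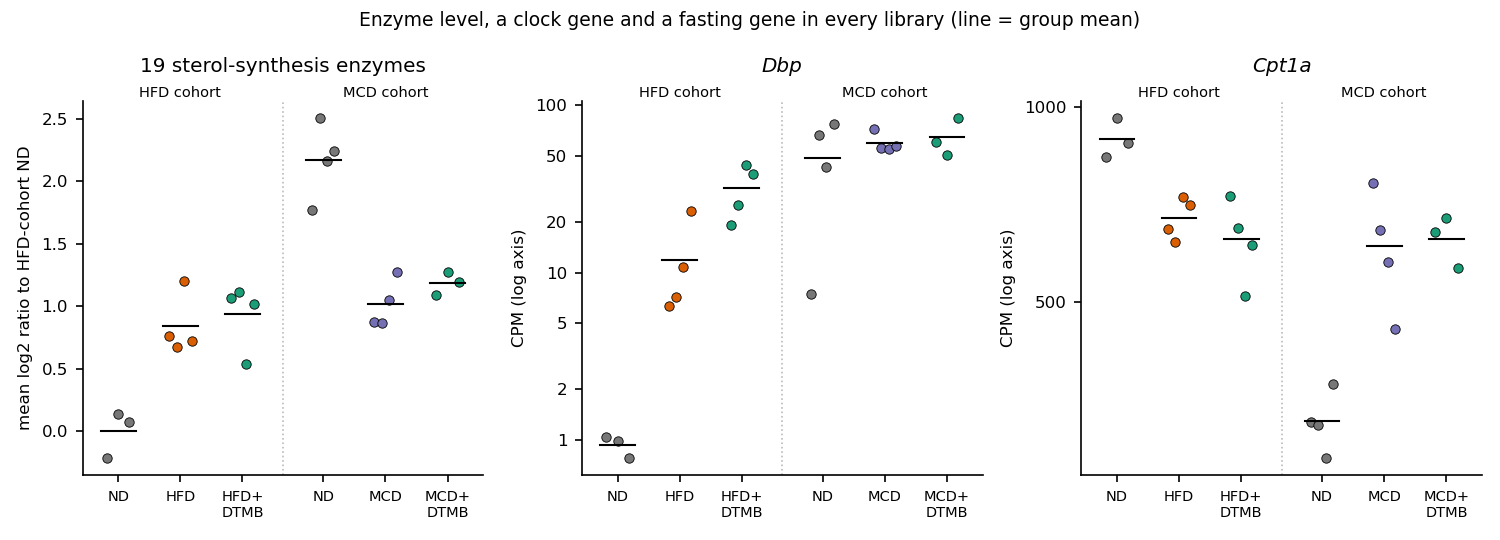
Left, mean log2 ratio of the 19 enzymes to the normal-diet group of the HFD cohort; middle and right, CPM of Dbp and Cpt1a on log axes; all on 1 scale for the 22 libraries, with 1 point per library and a line at the group mean. The normal-diet libraries of the MCD cohort hold the highest enzyme levels (3.41-fold to 5.68-fold), and the normal-diet libraries of the HFD cohort the lowest Dbp values.

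DTMB changed few of these genes on HFD and none by the test on MCD. Against vehicle on HFD, Tm7sf2 and Insig1 rose and no member fell, 2 of 30 where 12.7% of all genes were called (6.64% higher and 6.04% lower). With the values printed above, all 4 Tm7sf2 libraries with DTMB lay above all 4 with vehicle, and the gene rose by 0.61 ± 0.17 (SE, edgeR adjusted p = 0.0386), 1.52-fold. It was the 1 member without overlap, where 10.5% of all genes were higher and 9.35% lower without overlap (19.8% in either direction). Insig1 rose by 0.51 ± 0.15 (SE, edgeR adjusted p = 0.0428), 1.43-fold, although DTMB replicate 3 (125 CPM) was below HFD replicate 3 (130.3 CPM). Next to the threshold were Stard4, at 0.48 ± 0.15 (SE, edgeR adjusted p = 0.0564), and Soat1, at -0.84 ± 0.29 (SE, edgeR adjusted p = 0.0751). Hmgcs1 stood at -0.45 ± 0.19 (SE, edgeR adjusted p = 0.136). Of the 19 enzymes, 14 had a value above 0 and the median was 0.16, where the median of all genes was -0.015. Beside these values, 5 of 17 clock genes were higher with DTMB and 1 lower, with Bhlhe41 at 1.98 ± 0.41 and Tef at 0.68 ± 0.13, and 4 of the 9 lipid-associated macrophage genes were lower. Their part in the members' values was not tested.

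Both calls lay near the threshold and depended on single libraries. Without any 1 of HFD replicates 1, 2 and 4 or the 4 libraries with DTMB, neither was called (edgeR adjusted p = 0.0520 to 0.116 for Tm7sf2 and 0.0558 to 0.121 for Insig1). Tm7sf2 was not called without normal-diet replicate 1 either (0.0526), nor Insig1 without normal-diet replicate 2 (0.0569). Both values stayed above 0, from 0.45 to 0.75 for Tm7sf2 and from 0.37 to 0.66 for Insig1 on the log2 scale. Scaling by library size alone moved the median of all genes to -0.17, left neither called and called Acat2 (-0.29), Hmgcs1 (-0.59), Soat1 (-1.001) and Abca1 (-0.33) lower. Without HFD replicate 3, 4 members were called, Tm7sf2, Insig1 and Stard4 higher and Soat1 lower. Leaving out the acinar libraries left HFD replicates 2 and 3 to compare with replicates 1, 2 and 4 with DTMB. Tm7sf2 then stood at 0.48 and Insig1 at 0.46, and neither was called with so few libraries.

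On MCD no member was called with DTMB, where 1 of 16037 genes was (0.00624%). At an unadjusted p under 0.05 there were 2 members, Sc5d (0.35 ± 0.13 SE, edgeR adjusted p = 0.919) and Soat1 (-0.99 ± 0.41 SE, edgeR adjusted p = 0.919), and 857 genes in all; DESeq2 called 0 members and 13 genes. Sc5d and Dhcr7 (0.19 ± 0.19) were higher in all 3 DTMB libraries than in all 4 with vehicle, where 2.59% of all genes were, and no member was lower without overlap, where 3.27% of all genes were (5.86% in either direction). Of the 19 enzymes, 17 had a value above 0 and the median was 0.19, where that of all genes was 0.017. The 95% interval lay within a 2-fold change either way for 29 of the 30 members, Soat1 being the exception. That interval was built with the normal distribution, which makes it too narrow for so few libraries. For DTMB on MCD, the test recovered 10.4% of simulated 1.5-fold changes and 58.2% of 2-fold changes, so changes of this size could go uncalled. The difference between the DTMB effects, MCD minus HFD, was called for 0 of 30 members and 0 of 16541 genes (0%), with 3 members and 1415 genes at an unadjusted p under 0.05 and 0 members and 38 genes by DESeq2. For that difference, the test recovered 4.48% of simulated 1.5-fold changes and 56.7% of 2-fold changes. The DTMB comparisons on HFD and on MCD share no libraries with each other, and their difference uses the libraries of both. Each shares its vehicle libraries with the diet comparison of its cohort.

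**Figure D5:**
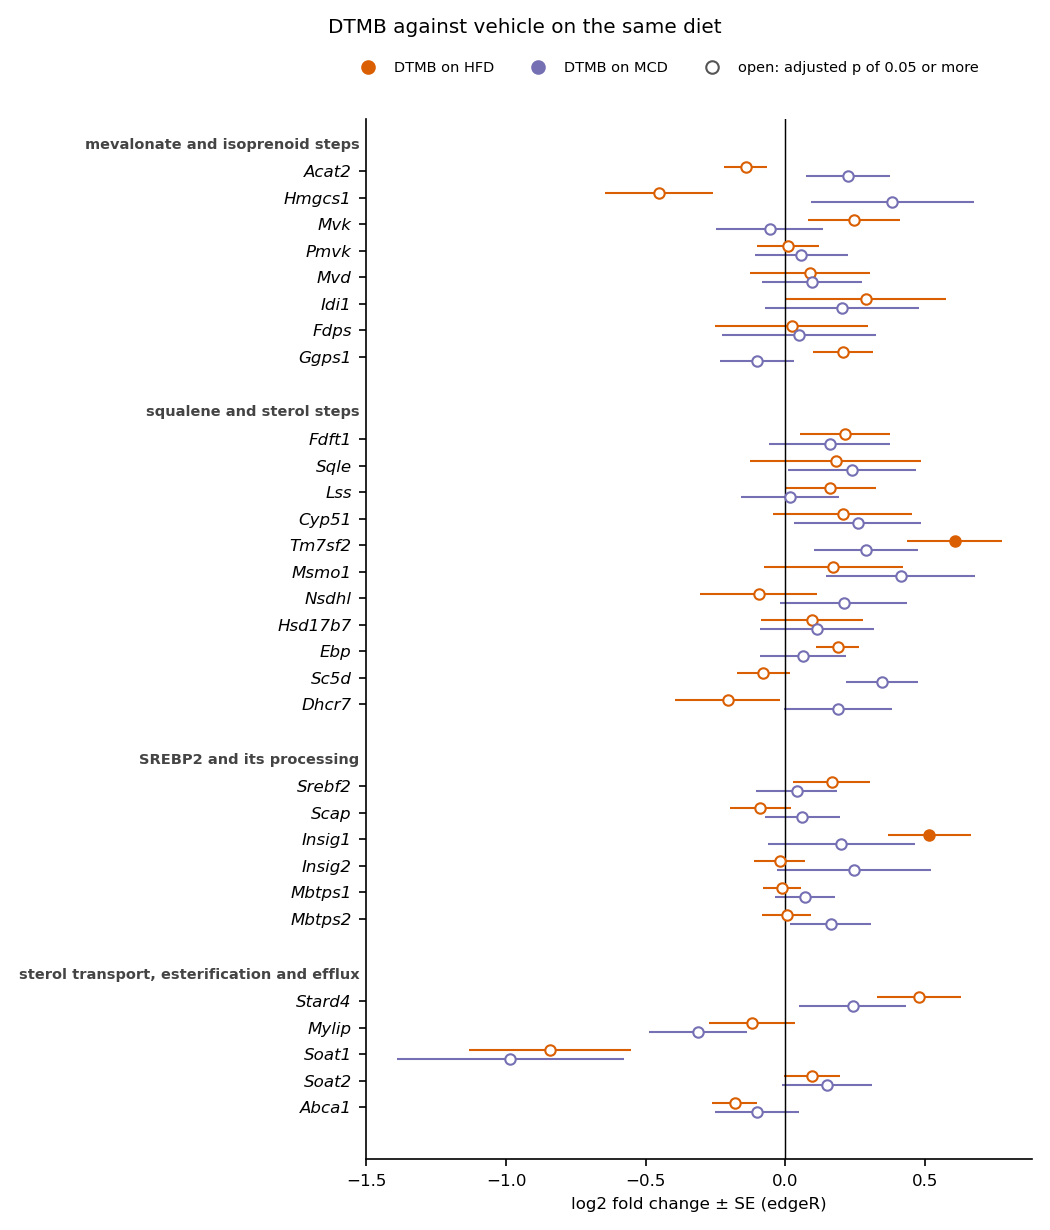
Log2 fold change (x axis, edgeR, bars ± SE) of the 30 members for DTMB against vehicle on HFD (orange) and on MCD (purple), grouped by role. Filled points, Tm7sf2 and Insig1 on HFD, have an adjusted p under 0.05; most points lie within 0.5 of 0 on the log2 scale, and Soat1 lies lowest on both diets without being called.

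Livers with DTMB were also set against normal diet, in comparisons that share libraries with those above. On HFD with DTMB 17 members were higher and 2 lower than on normal diet, among 29.2% of all genes (15.7% higher and 13.5% lower). Without overlap 16 were higher and 4 lower, against 18.9% and 16.5% of all genes (35.4%). Insig1 stood at 0.94 ± 0.16, 0.51 ± 0.15 and 1.46 ± 0.17 for HFD against normal diet, DTMB against vehicle and DTMB against normal diet. Insig2 (-0.94 ± 0.097) and Mbtps2 (-0.42 ± 0.094) were the 2 lower. Tm7sf2 stood at -0.40 ± 0.18 on HFD, and was called neither there nor with DTMB against normal diet (0.20 ± 0.18). Soat1 was called on HFD and stood at 0.23 ± 0.32 (SE, edgeR adjusted p = 0.641) with DTMB. Ebp (0.29 ± 0.084 SE, edgeR adjusted p = 0.0222) and Srebf2 (0.55 ± 0.15 SE, edgeR adjusted p = 0.0159) were called with DTMB and not with vehicle, which is no test of DTMB. Without the acinar libraries 8 of the 19 calls were lost, those of Fdps, Fdft1, Sqle, Cyp51, Ebp, Sc5d, Srebf2 and Mbtps2. Hmgcs1 was not called without normal-diet replicate 1 or replicates 2 or 4 with DTMB (edgeR adjusted p = 0.0527 to 0.0958), nor Cyp51 without normal-diet replicate 1 (0.0515). Ebp was also not called without any 1 of normal-diet replicates 1 and 3 and replicates 2 and 4 with DTMB (edgeR adjusted p = 0.0625 to 0.102), nor Srebf2 without normal-diet replicate 3 or replicate 2 with DTMB (0.0505 to 0.0588).

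On MCD with DTMB 2 members were higher and 19 lower than on normal diet, among 32.6% of all genes (16.2% higher and 16.4% lower). Without overlap 3 were higher and 20 lower, against 21.7% and 22.4% of all genes (44.1%). The 2 called higher were Mylip (0.89 ± 0.18 SE, edgeR adjusted p = 0.00260) and Soat1 (1.69 ± 0.41 SE, edgeR adjusted p = 0.00835), and Tm7sf2 was again the lowest, having fallen by 2.57 ± 0.20 (SE, edgeR adjusted p = 5.22e-06). Insig2 (-0.65 ± 0.28 SE, edgeR adjusted p = 0.0934) and Mbtps1 (-0.28 ± 0.11 SE, edgeR adjusted p = 0.0671) were called on MCD with vehicle but not with DTMB. Under library size alone, which moved the median of all genes to 0.37, 4 members were higher and 13 lower, with no share of all genes under that scaling given here. The calls of Mvk, Pmvk, Fdft1, Insig1, Stard4 (-0.24) and Abca1 (-0.11) were lost there, and those of Stard4 and Abca1 also without the acinar libraries. Without replicate 1 of MCD with DTMB, Mvk, Fdft1, Insig1, Stard4 and Abca1 were not called, and 17 members were called in all. Of these 5, Insig1, Stard4 and Abca1 were also not called without replicate 2, and Fdft1, Stard4 and Abca1 without replicate 3. Abca1 was also not called without any 1 of normal-diet replicates 1, 3 and 4, nor Stard4 without normal-diet replicate 4. All comparisons of a cohort share libraries, so these values are not independent of each other.

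In some libraries most enzymes deviated together from their group. In HFD replicate 3, 18 of the 19 enzymes were above the group mean, at 1.31-fold of it on average, and in replicate 3 of HFD with DTMB 1 of 19 was, at 0.75-fold. On normal diet in the MCD cohort, replicate 2 had 18 of 19 above the mean (1.28-fold) and replicate 1 had 1 of 19 (0.757-fold). Over the 11 libraries of each cohort, every sterol-step gene correlated above 0 with the mean of the other enzymes (r from 0.322 to 0.945 for HFD and 0.242 to 0.975 for MCD). The mevalonate genes ran from -0.361 to 0.964 and from -0.269 to 0.902. The transport genes spread from -0.857 to 0.805 and from -0.159 to 0.649. The mean of each group was subtracted first, so these correlations describe the spread between libraries within groups and not the diets.

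Genes around the pathway moved in both directions. Of 12 sterol efflux, oxysterol and LXR genes tested, 2 rose and 3 fell on HFD, and of 13 on MCD 3 rose and 3 fell. Cyp39a1, an oxysterol hydroxylase, stood at -1.27 ± 0.16 on HFD and 2.03 ± 0.18 on MCD, and Cyp27a1, a mitochondrial sterol hydroxylase of bile acid synthesis, at -1.900 ± 0.19 on MCD. Of 14 genes of lysosomal sterol export and lipoprotein uptake, 2 rose and 2 fell on HFD and 3 rose and 4 fell on MCD, among them Scarb1, the HDL receptor (0.44 ± 0.078 on HFD), and Lipa, the lysosomal acid lipase (0.69 ± 0.12 on MCD). Of 18 genes of SREBP1 and fatty acid synthesis, 6 rose and 3 fell on HFD and 3 rose and 8 fell on MCD. There Scd1, the main hepatic desaturase, fell by 6.44 ± 0.65 and Fads2 rose by 1.52 ± 0.12, and Pklr, the liver pyruvate kinase, rose on HFD by 1.399 ± 0.17. Of 15 genes of sterol-regulated degradation and SREBP transport, 3 rose and 6 fell on HFD and 2 rose and 5 fell on MCD. Sec23a, a coat protein of vesicles that leave the endoplasmic reticulum, stood at -0.46 ± 0.081 on HFD and 0.75 ± 0.10 on MCD.

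Of 14 genes of the isoprenoid branches, 2 rose and 2 fell on HFD and 2 rose and 3 fell on MCD, with Coq2, of ubiquinone synthesis, at 0.44 ± 0.088 on HFD and Pdss2 at -0.94 ± 0.12 on MCD. Of 8 electron donors and helpers of the sterol steps, 4 rose and 1 fell on HFD and 3 rose and 4 fell on MCD. Por, the reductase that feeds electrons to Cyp51 and other P450 enzymes, fell by 1.35 ± 0.19 on HFD, rose by 0.71 ± 0.18 with DTMB on HFD and stood at 1.49 ± 0.19 on MCD. Cyb5a, an electron donor of desaturation, rose with DTMB on HFD by 0.45 ± 0.10. With DTMB on HFD, 5 of 12 efflux and LXR genes rose, Abcg8, a subunit of the biliary sterol pump, by 0.42 ± 0.081 and Nr1h3, the gene of LXR-alpha, by 0.27 ± 0.055, and 3 of 18 fatty acid synthesis genes fell, Me1 by 0.44 ± 0.083 and Acaca by 0.43 ± 0.10. Under library size alone 1 efflux and LXR gene rose and 1 fell with DTMB on HFD, and 8 of 18 fatty acid synthesis genes fell. Nr1h3 was not called under that scaling, and no gene named here for a diet or for DTMB on HFD changed its sign. With the same scaling 9 of 14 lysosomal genes rose on MCD and none fell, and 8 rose and 2 fell of the degradation list, 9 rose and 1 fell of the isoprenoid list and 7 rose and 3 fell of the efflux list. On MCD with DTMB none of the genes of these lists was called. With TMM factors, the lists' shares of called genes stand beside 27.8%, 12.7% and 41.3% of all genes for HFD, DTMB on HFD and MCD. These shares are no background for the counts under library size alone. That scaling moved the median of all genes upward on MCD, so those counts are no result about the lists.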

How the data were processed

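Liver polyA RNA of 22 mice was sequenced from stranded libraries. The deposited values are raw read counts per gene, whole numbers for 45777 genes in 22 libraries, made by the authors. Per the submitters' processing notes the tools included HISAT2 2.1.0 and StringTie 2.1.3b, with FastQC 0.11.7 and Trimmomatic 0.38, on mm10; how shared or overlapping reads and strand were counted is not given in the sources used here. Totals were 50078966 to 66727450 counts, and 20101 genes had no count.

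The test on these counts was that of edgeR 4.0.16, run in R 4.3.3 (filterByExpr, TMM, quasi-likelihood F test), with the 3 groups of a cohort in 1 fit, all 22 libraries in 1 fit for differences between cohorts, and Benjamini-Hochberg adjustment over all genes tested. The SE is the log2 fold change divided by the root of F. CPM use TMM-scaled library sizes. P-values set a difference between groups against the spread between these samples. The script was tested on simulated data. Alternatives were DESeq2 1.42.0, limma-voom (limma 3.58.1), other scalings and filters, a replicate block and each library left out. Gene positions and promoters came from RefSeq GRCm38.p6, with 45679 IDs matched.

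The members and lists were chosen with earlier results of these data known. All members could be named. Values in every library were given for members called with DTMB or between cohorts and for Insig2, and other genes were limited to the 2 of smallest p per list and comparison, apart from Dbp, Nr1d1, Fgf21 and Cpt1a between the normal-diet groups, a comparison that was added after seeing the data.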

Additional observations from a re-analysis of the deposited data

Results flagged for a closer look

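Among the 30 members in the groups of 4 libraries, 12 of 120 combinations of gene and group had a library whose gap to the next, as a share of the group's range, exceeded Dixon's 95% limit, where chance gives about 1 in 20, or 6. Of these, 7 were HFD replicate 3, the library in which 18 of 19 enzymes were above the group mean. It was high for Pmvk (18.1 CPM), Mvd (8.96 CPM), Fdps (95.4 CPM), Msmo1 (123 CPM), Srebf2 (56.7 CPM) and Insig1 (130 CPM) and low for Mylip (6.7 CPM). In the HFD cohort Hsd17b7 was also low in replicate 3 with DTMB (36.9 CPM). In the MCD cohort, normal-diet replicate 2 was high for Acat2 (166 CPM) and Pmvk (59.3 CPM), MCD replicate 4 was high for Insig1 (285 CPM), and MCD replicate 2 was low for Srebf2 (38.1 CPM).

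The MCD effect differed from the HFD effect, by edgeR's test of the difference itself, for 26 members. On the log2 scale the MCD effect was lower for 23: Acat2 -1.94, Hmgcs1 -2.75, Mvk -1.95, Pmvk -0.86, Mvd -3.70, Idi1 -3.30, Fdps -1.96, Fdft1 -1.76, Sqle -3.36, Cyp51 -2.50, Tm7sf2 -2.42, Msmo1 -3.73, Nsdhl -3.17, Ebp -1.41, Sc5d -1.85, Dhcr7 -1.52, Srebf2 -0.70, Scap -0.71, Insig1 -2.09, Mbtps1 -0.43, Stard4 -1.67, Soat2 -0.66 and Abca1 -0.54. It was higher for 3: Mbtps2 0.55, Mylip 1.44 and Soat1 1.64. Each diet's effect is measured against the normal-diet group of its own cohort, and those groups differed for 24 of the 30 members.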

How the results depend on the processing

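When a log2 fold change of 1 or more in size was also required, 9 members were called on HFD, 15 on MCD, 0 for DTMB on HFD, and 11 for HFD with DTMB and 11 for MCD with DTMB against normal diet. For DTMB on HFD, where 2 were called, library size alone gave 4 (all lower), DESeq2 gave 4, the fit with a replicate block 1, and no filter, all 22 libraries in 1 fit and the fit without acinar libraries each 0. Without acinar libraries 9 were called on HFD and 11 for HFD with DTMB against normal diet. On MCD, library size alone reversed Ggps1 (0.45), Mbtps1 (0.12) and Abca1 (0.085), on the log2 scale. The cause of these shifts was not tested. Leaving out 1 library at a time gave 16 to 19 calls for HFD, 0 to 4 for DTMB on HFD, 16 to 20 for HFD with DTMB against normal diet, 22 to 24 for MCD, 0 for DTMB on MCD, 17 to 22 for MCD with DTMB against normal diet, 25 to 26 for the diet difference, 0 for the DTMB difference and 23 to 24 between normal-diet groups. Of all genes, 19.4% to 28.4% were then called for HFD and 3.13% to 16.5% for DTMB on HFD. For HFD with DTMB and MCD with DTMB against normal diet, these shares ran from 19.8% to 29.4% and from 22.9% to 35.5%. They ran from 35.1% to 41% for MCD, 28.8% to 35.7% for the diet difference and 17.8% to 27.5% between normal-diet groups. No such share is given here for the other settings, so their member counts lack a background. Calls held under every alternative but the fold cutoff for 9 of 18 members on HFD, 0 of 2 for DTMB on HFD, 18 of 23 on MCD, 18 of 26 for the diet difference and 19 of 24 between normal-diet groups. Whether replicate numbers pair the libraries was not settled. Same-numbered libraries correlated from -0.523 to 0.463 in the HFD cohort and from -0.393 to 0.118 in the MCD cohort. Group means were removed first, and libraries of unlike number were not compared, so these ranges cannot decide the pairing. With the replicate block, 16 members were called on HFD, 22 on MCD, 0 for DTMB on MCD and 26 for the diet difference. Groups of 3 or 4 libraries limit the precision, and the HFD-cohort normal-diet group rests on 1 library once acinar libraries are left out.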
